A study of Mus musculus with 4 samples.

Results

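The 10 genes described here encode Ets family transcription factors known from endothelium. They are Ets1, Ets2, Erg, Fli1, Elk3, Elk4, Elf1, Elf2, Etv6 and Gabpa, chosen by name from the 24421 rows of a table of raw read counts per gene. All 10 names had a row, and all 10 genes passed the filter on low counts. RNA came from lymphatic endothelial cells, which line lymphatic vessels, sorted from lungs of mice at postnatal day 0 as cells without CD45 (a leukocyte surface protein) and with CD31 (an endothelial surface protein) and GFP. All animals carried Prox1-CreER, a tamoxifen-dependent Cre recombinase driven by the Prox1 gene, and Rosa26-mTmG, a reporter that turns green where Cre has acted. Animals of the Jun-Ctrl group were Junf/+, with 1 floxed and 1 wild-type Jun allele, and those of the Jun-cKO group were Junf/f, with both alleles floxed. The control cells can therefore also have lost a Jun allele to Cre. Each group has 2 libraries (n = 2 throughout), 3 to 5 mice were pooled for a group per the labels, and the library whose title carries the word replicate is called replicate 2. Whether both libraries of 1 group hold separate animals is not stated, so p-values here reflect the spread between libraries alone, which may be technical.

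Ets factors share the Ets domain, a DNA-binding fold that reads a GGAA core, and they are grouped by sequence outside it. Enhancers of most endothelial genes hold Ets sites, and several family members are present in the same endothelial cell. Many Ets factors are phosphorylated by MAP kinases, and at promoters with neighbouring Ets and AP-1 sites they act together with Jun and Fos proteins, which is why the family is of interest where Jun is the targeted gene.

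Total counts per library ranged from 6483514 to 16037416, replicate 1 being the deeper library in both groups. The targeted gene did not follow its label. Jun stood at 472 and 433 CPM (counts-per-million, TMM-scaled) in the controls and at 524 and 475 CPM in those labelled Jun-cKO, a fold of 1.10 with a 95% interval of 0.934 to 1.30 (edgeR adjusted p = 0.354). With a correction for the GC content of transcripts the log2 fold change was 0.41 (edgeR adjusted p = 0.00408). The libraries are therefore written of as labelled Jun-cKO, the Jun-Ctrl libraries are called the controls, and every direction rests on those labels. The floxed part of Jun is not given in the sources used here.

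The cells carried the RNA of their labelled type, together with RNA of other lung cells that differed between the groups. The CD31 gene Pecam1 stood at 539 to 647 CPM over the 4 libraries and the lymphatic regulator Prox1 at 31.9 to 43.6 CPM, while the lymphatic chemokine gene Ccl21a was at 0 in every library. Sequence that Ccl21a may share with other genes was not checked, so a count of 0 need not mean absent RNA. The summed level of 10 lymphatic endothelial markers was 13570 to 14780 CPM in the controls and 18890 to 19400 CPM in the libraries labelled Jun-cKO, higher in the same libraries as the Ets sum. Lyve1, Mmrn1 and Reln held most of that sum, so it does not stand for the list as a whole. The median log2 fold change of the list was 0.146. Of the 9 tested, 3 were called higher and 1 lower. Over all tested genes, the share to set beside each list here, 19.0% were called higher and 22.5% lower. Reln rose 1.72-fold, Lyve1 1.53-fold and Mmrn1 1.45-fold (edgeR adjusted p = 7.03e-06, 0.000712 and 0.0014), and the receptor gene Flt4 fell 1.51-fold (0.000356). The Mmrn1 call ended without control replicate 2 (edgeR adjusted p = 0.114), and Prox1 had a fold of 0.805 without a call (0.0686). Of 12 lung epithelial markers all 12 were lower in the libraries labelled Jun-cKO, with a summed level of 1574 to 1633 CPM in the controls and 137 to 142 CPM in libraries labelled Jun-cKO. Of 9 tested leukocyte markers 8 were lower, with sums of 491 to 498 and 201 to 226 CPM. Of 9 tested mesenchymal markers 6 were lower, with sums of 329 to 333 and 104 to 112 CPM. Of 4 tested platelet and megakaryocyte markers 2 were lower, with sums of 9.40 to 14.4 and 6.05 to 7.73 CPM, and Ppbp and Gp6 were at 0 throughout. None of these 4 lists had a member called higher by edgeR, at an unadjusted p under 0.05, by DESeq2 or by limma-voom. Some of these markers passed the low-count filter only through the controls, which favours a lower call for them. The sums of 10 pan-endothelial markers were 3790 to 4104 and 4391 to 4527 CPM. The part of these marker shifts in the changes described below was not tested, and in bulk RNA fewer cells of a type and less RNA per cell cannot be told apart.

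**Figure D1:**
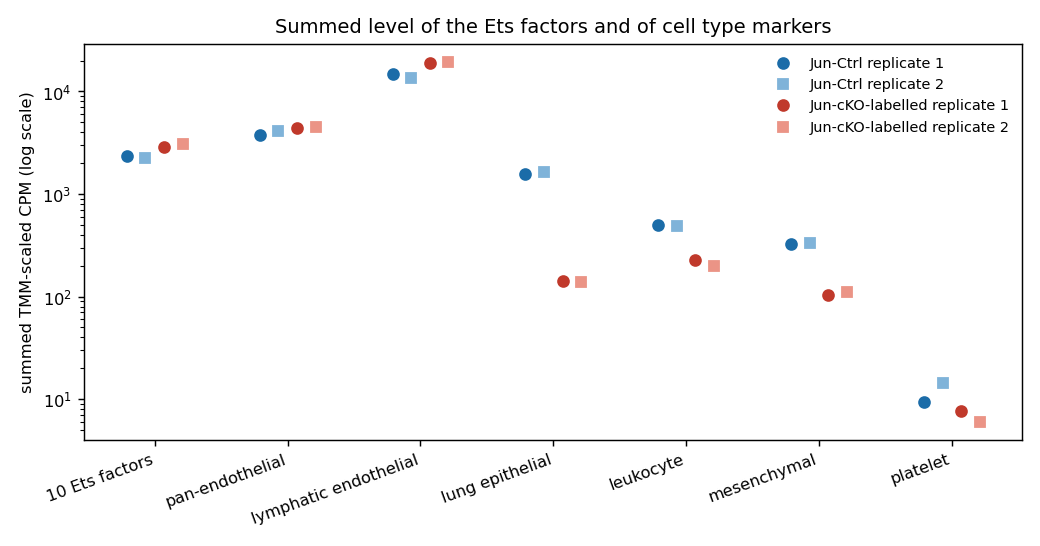
Summed TMM-scaled CPM (log axis) of the 10 Ets factors and of 6 marker lists, 1 point per library. The Ets sum lay at 2263 and 2340 CPM in the controls and at 2865 and 3089 CPM in libraries labelled Jun-cKO, and the lymphatic and pan-endothelial sums also lay higher there, while the epithelial, leukocyte, platelet and mesenchymal sums lay lower.

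Among the 10 Ets genes there were 6 that rose and 2 that fell from the controls to the libraries labelled Jun-cKO. Erg, Ets1, Gabpa, Elf2, Elk3 and Fli1 rose by 1.25-fold to 1.55-fold, Elk4 fell 2.00-fold and Elf1 1.48-fold, and Ets2 and Etv6 were not called. Over all 12656 tested genes 19.0% were called higher and 22.5% lower, 41.5% in all. The members' median log2 fold change was 0.36, against 0.005 over all tested genes. Calls varied with the level of a gene. Of the 10 members, 7 were in the fifth of tested genes with the highest expression, where 31% of genes were called higher and 13.1% lower. Both libraries labelled Jun-cKO lay above both controls for 6 members and below them for 3, which was so for 35.4% and 35.9% of all tested genes. Ets2 was the member whose groups overlapped.

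**Figure D2:**
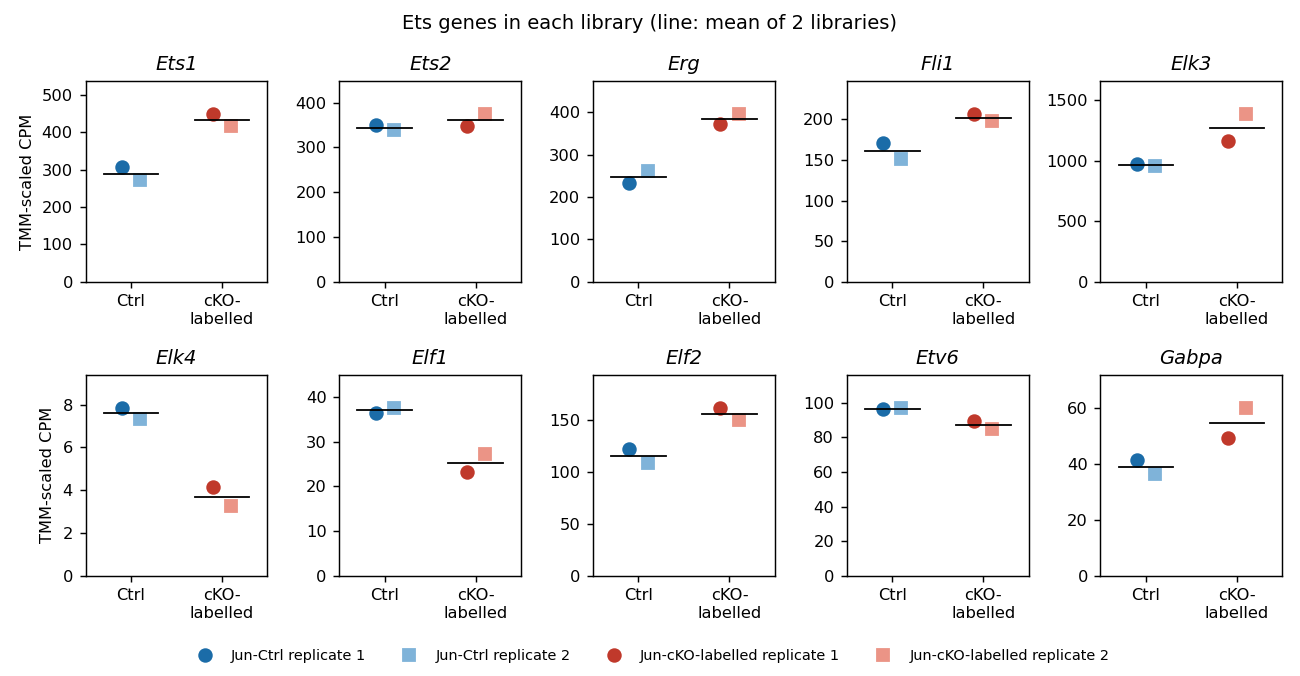
TMM-scaled CPM of the 10 Ets genes, 1 panel per gene with its own axis from 0, points for the 2 libraries of each group and a line at their mean. The points of the libraries labelled Jun-cKO lie above both controls for Ets1, Erg, Fli1, Elk3, Elf2 and Gabpa, and below them for Elk4, Elf1 and Etv6.

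Elk3 was the most abundant of the 10, and the levels per gene length spanned more than 2 orders of magnitude. Levels between genes are compared in CPM per kilobase of the gene length given in the table, which assumes reads spread evenly along a transcript, and amplified RNA need not meet that. Elk3 stood at 264 ± 47.2 CPM per kilobase (mean ± SD over 4 libraries) and Ets2 at 99.0 ± 4.14. The next were Erg at 91.0 ± 23.0, Ets1 at 71.4 ± 16.7 and Fli1 at 57.1 ± 7.90 CPM per kilobase. These 5 genes are the abundant Ets factors of the sorted cells, and the ranges over libraries of Ets2, Erg, Ets1 and Fli1 overlapped from each to the next. A lower group held Elf2 at 21.8 ± 3.90, Etv6 at 16.1 ± 1.04, Gabpa at 9.38 ± 2.07 and Elf1 at 7.18 ± 1.62 CPM per kilobase, and Elk4 was last at 1.54 ± 0.623. In that group only Gabpa and Elf1 overlapped, and Elf2 and Etv6 were close, with the lowest Elf2 library at 17.5 and the highest Etv6 library at 17.0 CPM per kilobase.

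The order of levels differed between the groups at 2 places. Ets2 was above Erg in both controls, at 98.1 and 95.4 against 67.4 and 75.5 CPM per kilobase. Erg was above Ets2 in both libraries labelled Jun-cKO, at 107 and 114 against 97.6 and 105 CPM per kilobase. Likewise Elf1, at 8.43 and 8.66 CPM per kilobase, was above Gabpa, at 8.32 and 7.27, in the controls. In the libraries labelled Jun-cKO Elf1 stood at 5.36 and 6.28 and Gabpa at 9.90 and 12.0 CPM per kilobase. Among the summed CPM per kilobase of all 26 Ets family genes in the table, the 10 members made up 92.7% and 93.0% in the controls and 95.6% and 96.3% in libraries labelled Jun-cKO. Elk3 alone made up 37.7% to 42.0% of that sum.

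**Figure D3:**
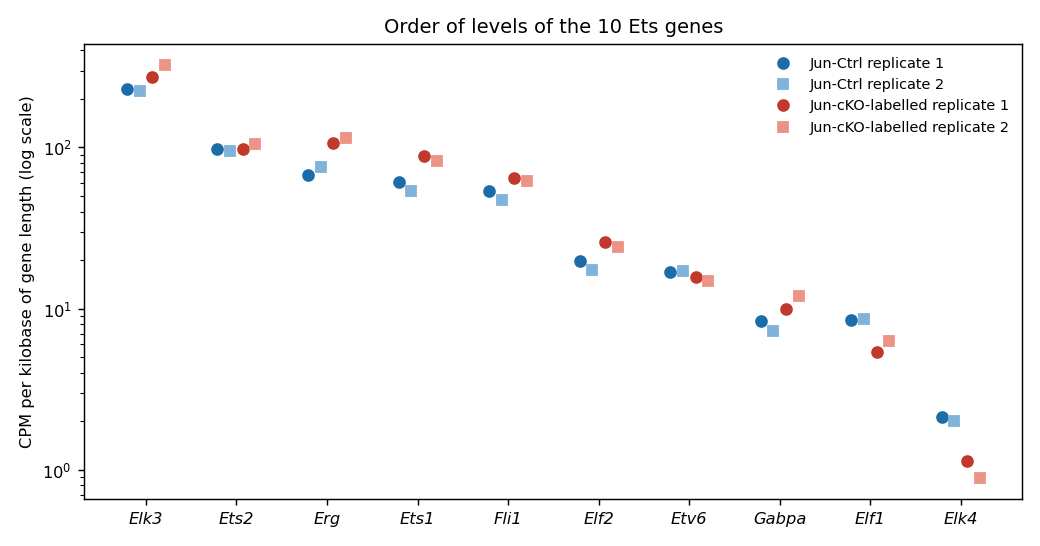
CPM per kilobase of gene length (log axis) of the 10 Ets genes in order of their mean, 1 point per library. Elk3 is highest in every library, at 225 to 326, and Elk4 lowest, at 0.885 to 2.13 CPM per kilobase.

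Erg and Fli1 form the subfamily most closely tied to endothelial identity. Erg, which keeps junction and identity genes such as that of VE-cadherin active, stood at 234 and 262 CPM in the controls and at 372 and 395 CPM in the libraries labelled Jun-cKO. Both libraries labelled Jun-cKO were high and the groups lay far apart relative to their spread. The rise was 1.55-fold (95% interval 1.32 to 1.82, edgeR adjusted p = 2.33e-05), and the call held in all 13 alternatives, at log2 fold changes of 0.54 to 0.69. Fli1, its nearest relative, which is also a factor of megakaryocytes and other blood cells, stood at 171 and 151 CPM in the controls and at 206 and 197 CPM in the libraries labelled Jun-cKO. Its groups did not overlap, and its rise was 1.25-fold (95% interval 1.06 to 1.47, edgeR adjusted p = 0.0216). This was the least stable of the calls. It ended after GC correction (log2 fold change 0.19, edgeR adjusted p = 0.151) and with library totals for scaling (0.27, edgeR adjusted p = 0.0662). It also ended without control replicate 1 or 2 (edgeR adjusted p = 0.0594 or 0.319) or without replicate 1 labelled Jun-cKO (0.0705). The ratio of Erg to Fli1 in CPM per kilobase was 1.25 and 1.59 in the controls and 1.65 and 1.83 in the libraries labelled Jun-cKO.

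Ets1 and Ets2 are the founding members, both activated by MAP kinase phosphorylation. Ets1, a factor of growing vessels and of lymphocytes, stood at 308 and 272 CPM in the controls and at 448 and 417 CPM in the libraries labelled Jun-cKO. The groups were well apart, and the rise was 1.49-fold (95% interval 1.26 to 1.76, edgeR adjusted p = 9.95e-05). The call held in all 13 alternatives, with log2 fold changes of 0.47 to 0.66. Ets2 stood at 349 and 339 CPM in the controls and at 347 and 373 CPM in the libraries labelled Jun-cKO. The 4 values interleave, and the fold of 1.05 had a 95% interval of 0.890 to 1.23 (edgeR adjusted p = 0.688), so changes within that interval are not told apart from none. The ratio of Ets1 to Ets2 in CPM per kilobase was 0.619 and 0.563 in the controls and 0.907 and 0.785 in the libraries labelled Jun-cKO.

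These 4 genes lie in the genome as 2 neighbouring pairs, each pairing a member of the Ets subfamily with a member of the Erg subfamily. On mouse chromosome 9 (GRCm38, GENCODE M21), Fli1 (minus strand, 32422204 to 32542861) and Ets1 (plus strand, 32636221 to 32757820) are 93.4 kilobases apart, with no protein-coding gene between them. On chromosome 16, Erg (minus strand, 95359169 to 95586593) and Ets2 (plus strand, 95702075 to 95721051) are 115.5 kilobases apart, again with no protein-coding gene between them. In each pair the genes point away from each other. Neighbours did not share their calls throughout. Erg was called higher beside Ets2, which was not called, and Ets1 was called with a fold of 1.49 beside Fli1 with a fold of 1.25. No difference between the changes of neighbours was tested.

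**Figure D4:**
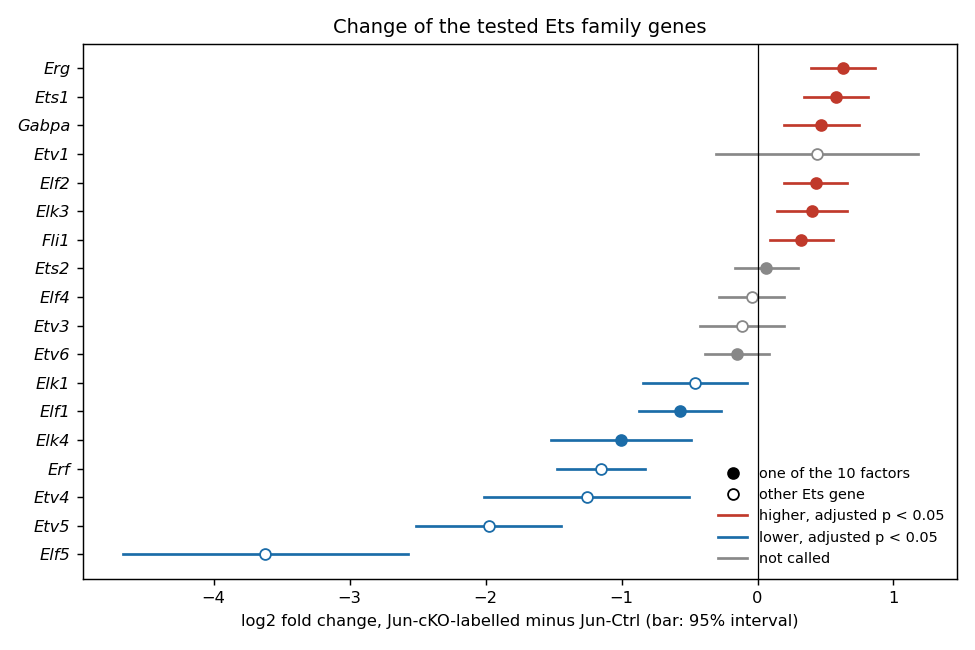
Log2 fold change (Jun-cKO-labelled minus Jun-Ctrl, edgeR) with its 95% interval for the 18 Ets family genes tested, filled points for the 10 members and open points for other Ets genes. Red marks genes called higher, blue genes called lower and grey genes not called, and the lower calls reach from Elk1 at -0.46 to Elf5 at -3.62.

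Elk3 and Elk4 are ternary complex factors, which bind DNA next to the serum response factor Srf and pass on MAP kinase signals. Elk3, which represses until it is phosphorylated, stood at 975 and 953 CPM in the controls and at 1166 and 1382 CPM in the libraries labelled Jun-cKO. The libraries labelled Jun-cKO were both higher but differed from each other more than the controls did. The rise was 1.32-fold (95% interval 1.11 to 1.58, edgeR adjusted p = 0.00955). The call ended without control replicate 1 or 2 (edgeR adjusted p = 0.0985 or 0.116) or without replicate 2 labelled Jun-cKO, the highest library (log2 fold change 0.28, edgeR adjusted p = 0.091). Elk4 was at the other end of the range, at 7.82 and 7.34 CPM in the controls and 4.13 and 3.25 CPM in the libraries labelled Jun-cKO, from counts of 129, 48, 63 and 22. Its groups lay apart and it fell 2.00-fold (95% interval of the fold 0.349 to 0.713, edgeR adjusted p = 0.00145). The call ended only without control replicate 1 (log2 fold change -0.97, edgeR adjusted p = 0.058). Elk3 lies on chromosome 10 (93247414 to 93311135, minus strand) and Elk4 on chromosome 1 (132007607 to 132032612, plus strand).

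The Elf pair moved in opposite directions. Elf1, a factor of endothelial and lymphoid cells, stood at 36.5 and 37.5 CPM in the controls and at 23.2 and 27.2 CPM in the libraries labelled Jun-cKO. The controls were close together and the groups did not overlap. The fall was 1.48-fold (95% interval of the fold 0.548 to 0.831, edgeR adjusted p = 0.00196) and held in all 13 alternatives, at log2 fold changes of -0.69 to -0.44. Elf2, its close relative, stood at 122 and 109 CPM in the controls and at 161 and 150 CPM in the libraries labelled Jun-cKO. The groups lay apart, and the rise was 1.34-fold (95% interval 1.14 to 1.58, edgeR adjusted p = 0.00267). It ended without control replicate 2 (log2 fold change 0.33, edgeR adjusted p = 0.115). The ratio of Elf2 to Elf1 in CPM per kilobase was 2.33 and 2.02 in the controls and 4.84 and 3.84 in the libraries labelled Jun-cKO. Elf1 lies on chromosome 14 (79481194 to 79582494, plus strand) and Elf2 on chromosome 3 (51252720 to 51340663, minus strand).

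Etv6 and Gabpa stand alone among the 10. Etv6, a repressor that forms chains through its pointed domain and is needed for yolk sac vessels and blood stem cells, stood at 96.4 and 96.9 CPM in the controls and at 89.3 and 84.6 CPM in the libraries labelled Jun-cKO. Both libraries labelled Jun-cKO were below both controls, but the fold of 0.902 had a 95% interval of 0.766 to 1.06 (edgeR adjusted p = 0.319). Gabpa, the DNA-binding subunit of the factor GABP, which serves nuclear genes for mitochondrial proteins, stood at 41.5 and 36.3 CPM in the controls and at 49.3 and 59.9 CPM in the libraries labelled Jun-cKO. Its groups did not overlap, and it rose 1.38-fold (95% interval 1.14 to 1.67, edgeR adjusted p = 0.00496). The call ended after GC correction (log2 fold change 0.28, edgeR adjusted p = 0.0725). It also ended without control replicate 2 (0.37, edgeR adjusted p = 0.114) or without replicate 2 labelled Jun-cKO (0.34, edgeR adjusted p = 0.067). Etv6 lies on chromosome 6 (134035700 to 134270158, plus strand) and Gabpa on chromosome 16 (84834925 to 84863779, plus strand).

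Base composition moved with the changes across the table. Genes of the decile with the lowest transcript GC content (29.6% to 41.9%) had a median log2 fold change of 0.23, and those of the highest (58% to 72.5%) of -0.44. Transcripts of the members held 41.4% (Gabpa) to 52.6% (Ets2) GC. The medians of their deciles were 0.23 for Gabpa, 0.15 for Fli1 and for Elf1 (45.0%), which fell, and 0.11 for Ets1 and Elf2. They were 0.06 for Elk3, Elk4 and Etv6, 0.01 for Erg and -0.07 for Ets2. The part of base composition in the changes of the members was not tested. Gabpa, in the decile of lowest GC content, and Fli1, at 44.5%, were the members whose calls ended with GC correction. The corrected log2 fold changes were 0.65 for Erg, 0.50 for Ets1, 0.36 for Elk3, 0.35 for Elf2, -0.69 for Elf1 and -1.05 for Elk4, all still called (edgeR adjusted p of 2.78e-05 to 0.0168).

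Exons of some members overlap another gene on the opposite strand, and the library kit did not mark strand. Elk3 shares 316 exon bases with Cdk17, Elf1 327 with Wbp4, Elf2 371 with 4930577N17Rik and Gabpa 397 with Atp5j, in GENCODE M21. Atp5j, the gene of a mitochondrial ATP synthase subunit, was the strongest of these at 209 and 227 CPM in the controls and 256 and 289 CPM in the libraries labelled Jun-cKO, a rise of 1.25-fold (edgeR adjusted p = 0.0229) beside that of Gabpa. Cdk17 rose 1.24-fold (edgeR adjusted p = 0.0379). Wbp4 had a fold of 1.07 and 4930577N17Rik of 0.819, and neither was called. The counting could not separate such reads by strand, and their part in the changes was not tested. Elk4 also shares 104 exon bases with Gm29103, on its own strand, and 84 with Mfsd4a, and Etv6 135 with Gm17089, which have no row under those names. Stretches of 79 bases, the length of a read, that also occur in transcripts of another gene made up 0% of those in Ets1, Ets2, Erg and Fli1 and at most 5.24% (Elk3) in the others.

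**Figure D5:**
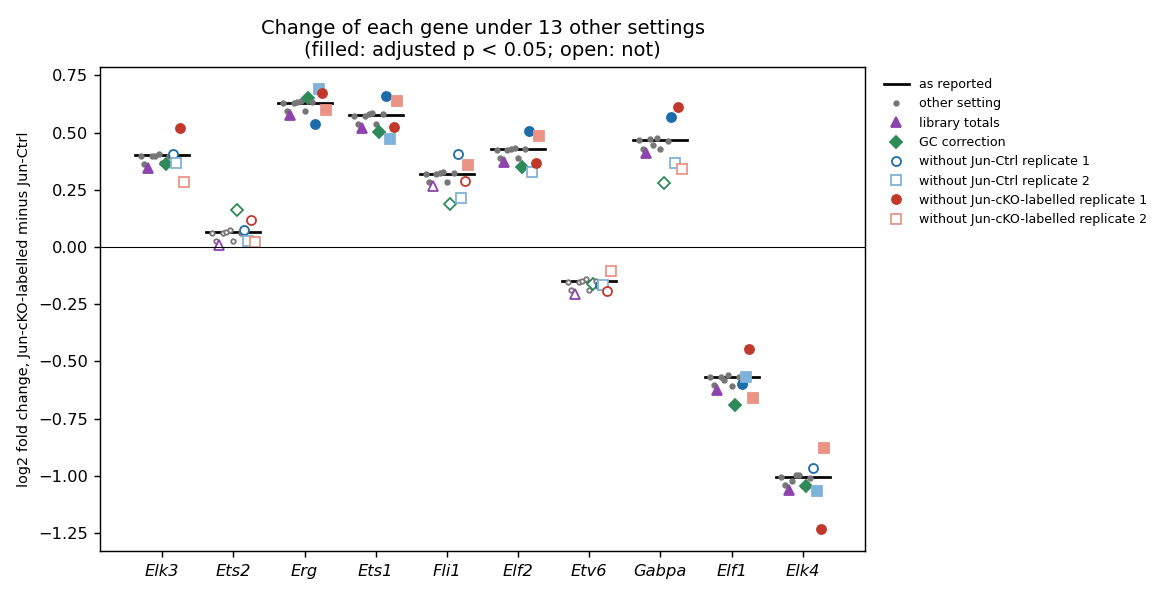
Log2 fold change of the 10 Ets genes under 13 alternative settings, filled where the adjusted p was under 0.05 and open where it was not, with a line at the value reported. Erg, Ets1 and Elf1 stay filled throughout, and no gene changes side of 0.

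Promoter windows from RefSeq (GRCm38.p6; 250 bases before to 50 after a transcription start) were matched by symbol for 8 of the 10 genes, 14 windows in all, and Ets1 and Fli1 had none. They were searched on both strands for TGANTCA, a pattern that takes in the AP-1 element, and for the related element TGACGTCA. They were also searched for CCGGAAG, an extended Ets element that contains the core GGAA. The AP-1 element was in 2 of the 14 windows and in 7.8% of all 32851 windows, and CCGGAAG was in 2 of the 14 and in 8.9% of all. TGACGTCA was in none of the 14 and in 1.8% of all, and the bare core GGAA was in all 14 and in 96.0% of all. The 4 windows with a match are printed because they show where matches to the search patterns stand in these genes, with the match in capitals. An Erg window without a match follows because Erg had the highest fold change of the 10.
Elf1, chr14:79515424-79515723, plus strand: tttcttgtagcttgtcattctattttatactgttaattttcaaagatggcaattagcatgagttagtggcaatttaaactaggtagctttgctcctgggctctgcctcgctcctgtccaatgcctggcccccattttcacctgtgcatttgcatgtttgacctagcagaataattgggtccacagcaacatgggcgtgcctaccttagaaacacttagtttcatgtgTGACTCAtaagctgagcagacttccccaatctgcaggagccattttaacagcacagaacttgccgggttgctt
Elf2, chr3:51277465-51277764, minus strand: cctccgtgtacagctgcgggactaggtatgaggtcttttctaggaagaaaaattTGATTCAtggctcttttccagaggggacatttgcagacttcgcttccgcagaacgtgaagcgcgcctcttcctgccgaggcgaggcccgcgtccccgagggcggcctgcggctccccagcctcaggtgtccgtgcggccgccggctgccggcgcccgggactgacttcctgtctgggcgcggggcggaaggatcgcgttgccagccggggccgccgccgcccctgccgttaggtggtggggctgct
Elk4, chr1:132007370-132007669, plus strand: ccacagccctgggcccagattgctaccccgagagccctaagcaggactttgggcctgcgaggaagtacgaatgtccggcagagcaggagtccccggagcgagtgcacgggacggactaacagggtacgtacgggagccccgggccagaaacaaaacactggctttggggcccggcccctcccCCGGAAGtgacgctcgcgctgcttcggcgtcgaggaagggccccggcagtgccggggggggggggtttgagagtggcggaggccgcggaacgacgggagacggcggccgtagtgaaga
Gabpa, chr16:84834874-84835173, plus strand: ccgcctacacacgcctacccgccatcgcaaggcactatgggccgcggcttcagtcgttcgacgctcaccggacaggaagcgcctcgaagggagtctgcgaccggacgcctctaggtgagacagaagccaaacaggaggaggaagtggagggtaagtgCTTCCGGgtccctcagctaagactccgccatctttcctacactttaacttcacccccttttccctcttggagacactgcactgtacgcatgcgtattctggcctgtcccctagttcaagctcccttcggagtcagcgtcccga
Erg, chr16:95586544-95586843, minus strand: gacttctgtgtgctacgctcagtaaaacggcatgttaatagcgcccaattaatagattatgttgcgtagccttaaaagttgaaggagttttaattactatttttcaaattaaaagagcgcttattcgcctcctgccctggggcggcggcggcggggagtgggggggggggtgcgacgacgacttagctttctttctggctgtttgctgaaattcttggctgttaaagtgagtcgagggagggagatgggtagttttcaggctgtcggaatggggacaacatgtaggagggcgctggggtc
The search for TGANTCA took any base at N. The match begins 23 bases before the start in Elf1, which fell, and 196 bases before it in Elf2, which rose. It reads TGACTCA in Elf1 and TGATTCA in Elf2, so the middle base differs, and the Elf2 match need not be an AP-1 site. The Ets matches begin 68 bases before the start in Elk4, which fell, and 93 bases before it in Gabpa, which rose and whose match is on the opposite strand. Matches to either search pattern thus stood in a gene that rose and in a gene that fell. Elf1 and Elf2 each have 2 windows and Elk4 has 3, and counts per gene do not say which start was used.

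Of the other 16 Ets family genes in the table, 8 were too scarce to test. Of the 8 that were tested, 5 fell, and 0 were called higher by edgeR, at an unadjusted p under 0.05, by DESeq2 or by limma-voom. Over all tested genes 22.5% were called lower and 19.0% higher. Among the 2532 tested genes of lowest expression these shares were 31.7% and 9.1%, and among the 2531 of highest expression 13.1% and 31%. Elf4, Etv3, Erf and Elk1 had more CPM in every library than Elk4, a member that lay above the group of lowest expression. The shares of that group are therefore no comparison for Elf4, Etv3, Erf and Elk1. The summed level of the 16 Ets genes was 201 and 184 CPM in the controls and 158 and 144 CPM in the libraries labelled Jun-cKO. Erf, a repressor controlled by MAP kinase, fell 2.22-fold from 33.6 ± 1.68 to 15.1 ± 1.24 CPM (edgeR adjusted p = 1.19e-07). Etv5, a target of FGF signals that alveolar epithelium also makes, fell 3.94-fold from 10.1 ± 0.452 to 2.66 ± 0.617 CPM (edgeR adjusted p = 4.91e-08). Elf5, a factor of epithelial cells, fell 12.3-fold from 3.36 ± 0.646 to 0.279 ± 0.0234 CPM (edgeR adjusted p = 2.17e-07), beside the lung epithelial sums given above. With 63 and 19 counts in the controls and 4 and 2 in the libraries labelled Jun-cKO, Elf5 passed the low-count filter only through the controls. This favours a lower call for it. Etv4 fell 2.39-fold and Elk1, the third ternary complex factor, 1.38-fold (edgeR adjusted p = 0.00601 and 0.0481). The Elk1 call was lost with DESeq2 (adjusted p = 0.191), with GC correction (0.0866), without control replicate 1 (0.396) or without replicate 2 labelled Jun-cKO (0.263). The Etv4 call was lost with DESeq2 (adjusted p = 0.073), with GC correction (0.0686) and without control replicate 1 or 2 (0.0507 or 0.0616). Elf4, the highest of the 16 in CPM, stood at 97.5 and 87.7 CPM in the controls and at 93.8 and 86.2 CPM in the libraries labelled Jun-cKO, close to the member Etv6. Elf4 had a log2 fold change of -0.04, Etv3 of -0.12 and Etv1 of 0.44, with no call. The count of 5 lower was 3 with DESeq2, with a filter of 50 counts, after GC correction and without control replicate 1.

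Of the Ets genes too scarce to test, the myeloid factor Spi1 had 14 and 8 counts in the controls and 1 and 1 in the libraries labelled Jun-cKO, beside the leukocyte sums given above. The epithelial factor Elf3 had 19 and 4 counts against 2 and 0. Spib and Spic, factors of B cells and of red pulp macrophages, had 3 and 3 counts and 3 and 0 counts in the controls and 0 in the other group. Ehf, Fev and Spdef had 1 to 7 counts per library, and Etv2, which founds the endothelial lineage in the embryo, had 0 in every library.

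Among partners and regulators of Ets factors, 6 of 24 tested genes were called higher and 6 lower, near the shares over all tested genes (19.0% and 22.5%), with a median log2 fold change of 0.17. Lmo2 and Lyl1, which work with Tal1, Gata2 and Ets factors in blood and endothelial cells, rose by log2 fold changes of 0.47 and 0.67 (edgeR adjusted p = 0.00129 and 0.000229). The coactivator gene Crebbp fell 3.85-fold from 25.8 and 23.1 to 6.88 and 5.61 CPM (edgeR adjusted p = 1.28e-11). Mapk3, a kinase that phosphorylates Ets factors, fell 1.47-fold (edgeR adjusted p = 0.000322). Gabpb1, the partner of Gabpa, stood at 58.7 and 59.1 CPM in the controls and at 70.4 and 70.3 CPM in the libraries labelled Jun-cKO, without a call (edgeR adjusted p = 0.0879). The Mapk3 call ended after GC correction (edgeR adjusted p = 0.222), that of Lyl1 without control replicate 1 (0.0831) and that of Lmo2 without control replicate 2 (0.0586). The higher count was 2 and 1 without control replicates 1 and 2, and the lower count 3 after GC correction.

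Of 22 endothelial genes whose promoters or enhancers are known for Ets sites, 5 were called higher and 5 lower, again near the shares over all tested genes (19.0% and 22.5%), with a median log2 fold change of 0.11. Angpt2, an angiopoietin needed for lymphatic vessels, rose 1.65-fold from 268 and 237 to 399 and 436 CPM (edgeR adjusted p = 2.59e-06). The vessel guidance receptor gene Robo4 rose 1.49-fold and the angiopoietin receptor gene Tek 1.30-fold (edgeR adjusted p = 0.000135 and 0.0076). Cd34 fell 1.94-fold, Flt4 1.51-fold and Icam2 1.29-fold (edgeR adjusted p = 1.9e-05, 0.000356 and 0.0102). The counts were 9 genes higher and 1 lower after GC correction, where the Flt4 and Icam2 calls ended (edgeR adjusted p = 0.0922 and 0.141). The higher count was 1 without control replicate 1, where the calls of Robo4 and Tek ended (edgeR adjusted p = 0.0644 and 0.127). It was 3 with library totals and with a filter of 50 counts, and 8 with limma-voom and with a replicate block. The lower count was 2 without control replicate 2 and 3 without replicate 2 labelled Jun-cKO. Leaving out either of these libraries also ended the calls of Tek (edgeR adjusted p = 0.0669 and 0.0532) and Icam2 (0.173 and 0.152).

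Genes known for joint Ets and AP-1 sites had no higher call and 5 lower calls among 6 tested, where 22.5% of all tested genes were lower. The list had a median log2 fold change of -1.08. Like the other lists it was chosen with earlier results of these data known, which limits the comparison with all genes. No member was higher at an unadjusted p under 0.05, by DESeq2 or by limma-voom. Mmp9, among the lower calls, had 77 and 32 counts in the controls and 15 and 4 in the libraries labelled Jun-cKO. It passed the low-count filter only through the controls, which favours a lower call. Itga5, a fibronectin receptor subunit, fell 2.80-fold, the growth factor gene Hbegf 2.52-fold and the urokinase receptor gene Plaur 1.78-fold (edgeR adjusted p = 5.35e-11, 1.79e-08 and 1.43e-07). Leukocytes and mesenchymal cells also make these, and the sums of their markers were lower in the same libraries, as given above. The lower count was 5 after GC correction and 4 without control replicate 1.

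Of 10 tested serum response genes, which Srf and the Elk factors drive together, 4 were called lower and 0 higher. Over all tested genes 22.5% were called lower and 19.0% higher. The list had a median log2 fold change of -0.14, and 0 higher also at an unadjusted p under 0.05, by DESeq2 and by limma-voom. Nr4a1 fell 2.62-fold, Srf itself 1.45-fold and Egr1 1.32-fold (edgeR adjusted p = 5.35e-11, 0.00125 and 0.00835). The Srf and Egr1 calls ended after GC correction (edgeR adjusted p = 0.51 and 0.912), where the list had 1 higher and 2 lower, and that of Egr1 also without control replicate 1 (0.0813), where 2 were lower. Of 8 genes known for Gabpa sites, 2 rose and 1 fell, with a median log2 fold change of 0.16. This was near the 41.5% called over all tested genes (19.0% higher and 22.5% lower). Cox5b, a cytochrome oxidase subunit, rose 1.36-fold, Skp2, of a ubiquitin ligase, 1.56-fold, and Polrmt, the mitochondrial RNA polymerase, fell 2.21-fold (edgeR adjusted p = 0.00217, 0.00587 and 9.16e-06). Without control replicate 1 the calls of Cox5b and Skp2 ended (edgeR adjusted p = 0.0943 and 0.0681), and without control replicate 2 or replicate 2 labelled Jun-cKO that of Skp2 (0.0688 and 0.0994).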

How the data were processed

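Sorted lung lymphatic endothelial cells of 2 genotypes were profiled by RNA-seq, with RNA amplified before library preparation and reads of 79 bases, per the labels' protocols. The authors deposited 1 table of raw gene-level read counts, with each gene's length. STAR 2.7.2a, featureCounts 1.6.4, edgeR 3.28.1 and mm10 are named without roles, per the submitters' processing notes, and for the annotation and strand setting no source used here gives a value. Groups come from the labelled genotype. The test was the quasi-likelihood F-test of edgeR 4.0.16 (R 4.3.3; TMM scaling, filterByExpr, no block) on the 4 libraries. The filter left 12656 genes, and calls use p-values adjusted over all of them by Benjamini-Hochberg, under 0.05. Standard errors are the log2 fold change over the root of F, and 95% intervals use the moderated degrees of freedom. Transcript GC content, from the GENCODE M21 annotation of GRCm38 (mm10), was matched by name for 96.3% of tested genes. GC correction enters a loess fit (span 0.5) of each library's deviation on GC content as an offset. Other alternatives were DESeq2 1.42.0 size factors and its Wald test, upper-quartile scaling, library totals, limma-voom (limma 3.58.1), leaving out the filter, requiring 50 counts in 2 libraries, a replicate block and each library left out. Replicates were not duplicates: the chi-square between the 2 libraries had a median over genes of 1.21 (Jun-Ctrl) and 1.48 (Jun-cKO), and sampling alone gives 0.455.

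The 10 genes and the lists were chosen with earlier results of these data known. Named genes are Jun, the 10 members, all other Ets genes with a count, and in each list at most 3 called genes a direction with the smallest p, except that some partners and regulators under this rule are not reported here. Markers of cell types are given mainly as sums, and Pecam1, Prox1, Gabpb1, Ccl21a, Ppbp, Gp6, Etv2, Mmp9 and the overlapping genes are named outside that rule.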

Additional observations from a re-analysis of the deposited data

How the results depend on the processing

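All 10 Ets genes kept their direction in all 13 alternatives. Of the 8 calls, those of Erg, Ets1 and Elf1 held throughout and 5 ended in at least 1 alternative, as given with each gene. The count of Ets genes higher was 6 and ranged from 2 to 5 with a library left out, 2 being without control replicate 2, and the count lower was 2 and ranged from 1 to 2, 1 being without control replicate 1. GC correction left 4 higher and 2 lower. Over all genes, 2408 were called higher and 2843 lower. With DESeq2 1564 were higher and 2027 lower (the cause was not tested), and with a library left out 1177 to 2214 were higher and 1815 to 2656 lower, the fewest calls in all, 2992, coming when control replicate 1 was left out, and 3425 when control replicate 2 was. Where a group was left with 1 library, it was assumed to vary like the other. The uncalled Elf4 changed sign after GC correction (0.016) and ranged from -0.134 to 0.029 with a library left out, and Tie1, an endothelial receptor gene, went from -0.37 and a call to 0.016 after GC correction. With the replicate number as a block, 6 Ets genes were higher and 2 lower, and 2521 of all genes were higher and 2905 lower. The numbers come from the order of deposit, and the labels do not state that same-numbered libraries belong together, so the libraries were not treated as pairs. The deviations of same-numbered libraries from their group means had a correlation of 0.073 across genes. Sampling noise lowers such a correlation, so it does not decide whether these libraries share a batch. Elk4, with 22 to 129 counts per library, is the member whose precision depth limits most. Counts in the other lists moved with GC correction and left-out controls as given with each list.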
